A study of Homo sapiens with 6 samples.

Results

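Of the 542 m5C sites listed in 6 ribosome fractions of HEK293T cells, 233 were listed in at least 1 of the 4 lighter fractions and in neither polysome fraction. They were chosen by that rule from the deposited site lists, so their absence from the polysome lists is their definition and not a result. They lay in 223 of the 501 genes. Another 183 sites were listed in a lighter fraction and in polysomes, and 126 were listed in polysomes alone, so that 309 sites were listed in light or heavy polysomes. HEK293T is a human embryonic kidney cell line, and the cells here were wild type. Their lysate was separated on a sucrose gradient into free RNA, the 2 ribosomal subunits (small and large), single ribosomes or monosomes, and polysomes, which were called light with 2 to 5 ribosomes and heavy with over 5. The poly(A)-selected RNA of each fraction was profiled by RNA bisulfite sequencing, in which unmethylated cytosine is read as T and m5C as C, to ask whether m5C was linked to translation. Each fraction was 1 library with no replicates, and the site lists hold no expression values against which markers of the cell line could be checked.

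5-methylcytosine is placed on cytosines of RNA by methyltransferases of the NSUN family. In mRNA, NSUN2 acts mainly on cytosines followed by G-rich sequence (Type I) and NSUN6 on cytosines followed by UCCA in a hairpin loop (Type II). mRNAs under active translation carry several ribosomes and sediment as polysomes, while mRNAs that are not translated stay in the free and subunit fractions. Processed pseudogenes are copies of an mRNA inserted elsewhere in the genome, and reads from the parent mRNA can match them.

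The following windows are shown because they hold the members with most reads and those that share their sequence with other sites. Each is the spliced sequence with 10 nt on either side, in DNA letters, with the listed C and the next 4 bases in capitals, read from GRCh37. The RPS29, RPS3 and RPS2 windows were each shared letter for letter with pseudogene sites among the members. The RPSA window, itself listed in both polysome fractions, was shared by the members in COMMD1 and the pseudogene RP11-506B6.3 and by RPSAP58, while that of RP11-182B22.2 was the same only after C was read as T. MDH2 and CDT1 are Type II members and SERP1, DHRS4 and MED4 are G-rich Type I members that shared their window with no other listed site. With C read as T, the windows of MDH2 and of CDT1 each also occurred in a transcript of 1 other gene.
RPS29: acggtctgatCCGGAaatatg
RPS3: acagggtgtgCTGGGcatcaa
RPS2: gatggggaacCGCGGtggctt
RPSA: gtgttatatcCTCCAggaata
RP11-182B22.2: gtgtcatatcCTCCAggaata
MDH2: ctgccaccctCTCCAtggcgt
CDT1: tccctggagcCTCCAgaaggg
SERP1: ctgagaacctCGGCGctccgg
DHRS4: atggccagctCCGGGatgacc
MED4: acctgggttcCAGGGgacccc

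Most of the 233 sites were seen in a single library. Of them, 164 (70.4%, exact 95% interval 64.1 to 76.2) were listed in 1 lighter library, 40 in 2, 17 in 3 and 12 in all 4. Sites listed in the free library alone were the most frequent with 58, followed by the large subunit alone with 49, the small subunit alone with 35 and the monosome alone with 22. The free and small subunit libraries together listed another 15. Of the sites listed in 1 lighter library, 75.2% were listed in neither polysome library, against 48.2% of those in 2, 27.0% of those in 3 and 23.1% of those in 4. The members made up 103 of the 172 sites of the free library (59.9%), 86 of 199 in the small subunit library (43.2%), 90 of 233 in the large subunit library (38.6%) and 64 of 177 in the monosome library (36.2%). Beside these shares, the total reads at all listed sites fell from 764521 in the free library to 156825 in the monosome library, 75927 in light polysomes and 50416 in heavy polysomes, and the part of this fall in the missing listings was not tested. These totals cover listed sites alone, are dominated by a few sites such as RPS29, and are not the depth of a library. The median listed site had 75 reads in the free list and 68 in each polysome list. At sites listed in both libraries, reads in heavy polysomes were a median of 1.14 times those in the free library (95% interval 0.685 to 2.08, n = 51), and those in light polysomes 1.23 times (0.981 to 2.15, n = 63). These medians and ratios take only sites that passed the filter, so sites with few reads in polysomes are left out. They cannot give the coverage of the members in polysomes.

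**Figure D1:**
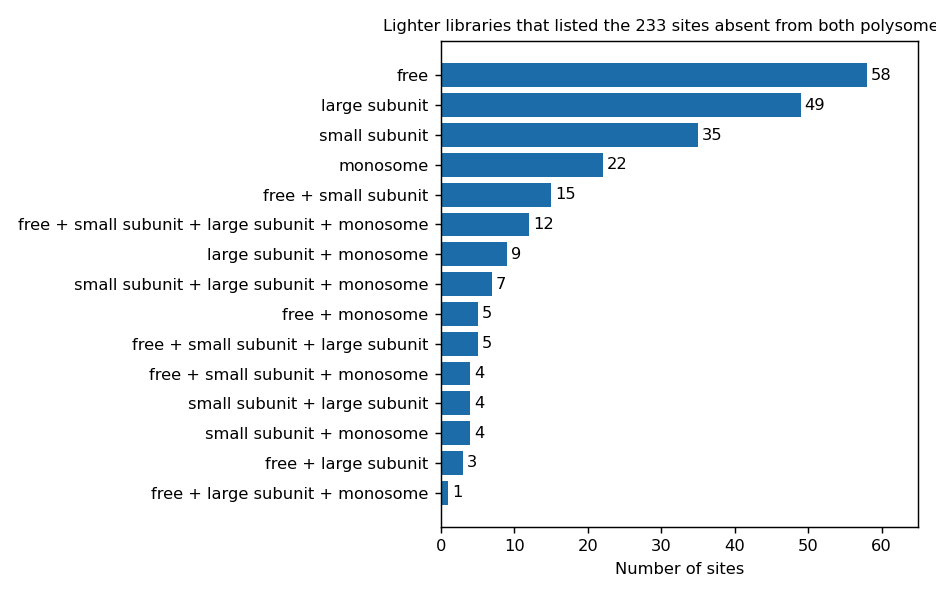
Number of sites (x axis) for each combination of lighter libraries that listed a site (y axis), over the 233 sites absent from both polysome lists. The free library alone listed 58 sites, and 12 sites were in all 4 lists.

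The members sat close to the limits of the calling filter, which required a level of at least 10% and at least 20 reads. Their median level, pooled over the lighter libraries that listed them, was 13.6% (95% interval of the median 13.0 to 14.6, n = 233), and that of the sites also listed in polysomes was 20.4% (18.9 to 24, n = 183). The median sum of reads was 64 (57 to 72) against 131 (112 to 162). In the free library the median level was 16.7% at members and 21.8% at sites also listed in polysomes. It was 13.5% against 23.1% in the small subunit library, 12.4% against 21.8% in the large subunit library and 13.4% against 20.9% in the monosome library. Median reads of members and of the other sites were 61 and 107 in the free library, 68 and 74 with the small subunit, 61 and 73 with the large subunit and 64.5 and 73 in monosomes. Level and reads decide what is listed, so these are descriptions without a test.

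Counting error alone left many members within reach of the level limit. The 95% Wilson interval of the pooled level went below 10% at 151 of 233 members (64.8%) and at 46 of 183 sites also listed in polysomes (25.1%). Such intervals cover counting error only, since the reads had no molecular identifiers. The level stood at exactly 10% in a lighter library for 12 members and for 1 of the 183 sites also listed in polysomes. Polysome listings at exactly 10% were not counted here. At the level limit itself were YWHAB, which encodes a 14-3-3 protein, and NME6, a nucleoside diphosphate kinase, each with 5 C among 50 reads in the large subunit library. Just outside the rule, KHSRP in heavy polysomes had the same 5 of 50 and KTN1 in light polysomes 6 of 60. At the read limit, the members RP11-16F15.2 and B3GNTL1 each had 5 C among 20 reads, and among the sites listed in polysomes DGKZ had 6 and NAAA 13 C among 20. At 39 members (16.7%) the C reads summed to 5, the lowest count of any listing. Over the lighter libraries alone, the same sum stood behind 12 of the 183 sites also listed in polysomes (6.56%). The polysome C reads of those 12 sites were left out, so these shares do not compare all C reads. Whether a site was missing from a polysome list through its level, its reads or its C reads is not recorded in the lists and was not tested.

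**Figure D2:**
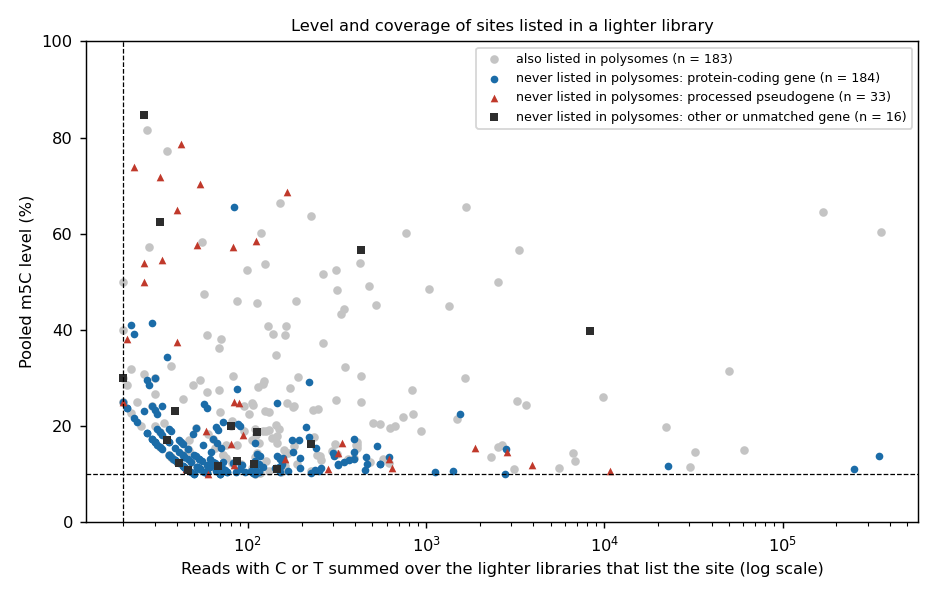
Pooled m5C level (y axis, percent) against summed reads (x axis, log scale) of each site listed in a lighter library, with sites also listed in polysomes in grey and members by kind of gene. Dashed lines mark 10% and 20 reads. Members crowd the lower left, with medians of 13.6% and 64 reads, and most of those above 50% are processed pseudogenes.

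The share of sites that no polysome library listed fell with the level, except in the highest class. It was 81 of 95 (85.3%) among sites pooled at 10 to 12%, 60.7% at 12 to 15%, 56.0% at 15 to 20%, 35.6% at 20 to 30% and 22.0% at 30 to 50%, but 16 of 34 (47.1%) at 50% or more. Among protein-coding genes alone the share went on falling to 14.3% at 30 to 50% and to 1 of 17 (5.88%) at 50% or more. That 1 site was in COMMD1, a regulator of copper balance and NF-kB signalling, and its window was that of RPSA. By summed reads the share was 62.2% at 20 to 30, 72% at 30 to 50 and at 50 to 100, 40.2% at 100 to 200, 45.5% at 200 to 500 and 34.5% at 500 or more.

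**Figure D3:**
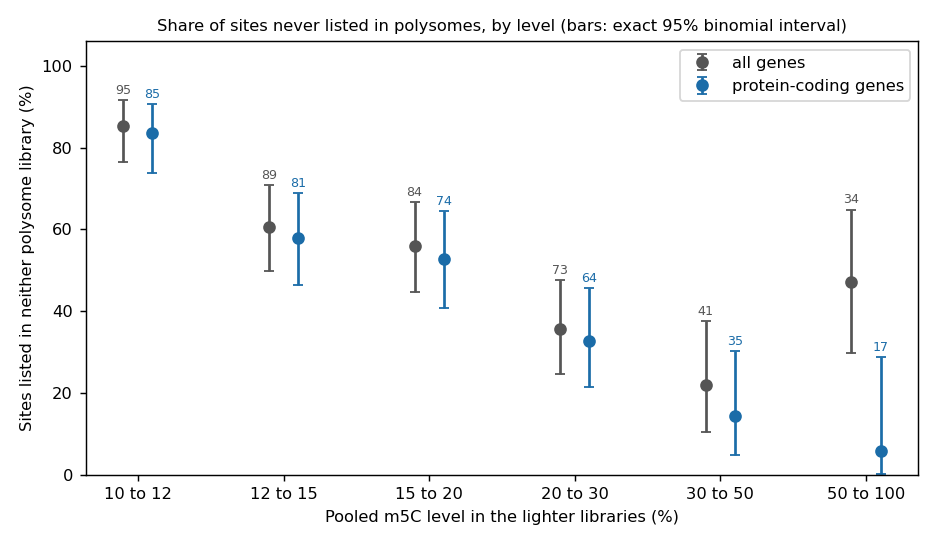
Share of sites listed in neither polysome library (y axis, percent) by pooled level (x axis, percent), for all genes and for protein-coding genes, with exact 95% binomial intervals and the number of sites above each. Both fall from over 80% at 10 to 12%, and at 50% or more they part, with 47.1% for all genes and 5.88% for protein-coding genes.

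Of the 233 members, 29 (12.4%) had a lower bound of at least 10% and at least 100 reads in a library, and 19 of these lay in protein-coding genes. Among the sites also listed in polysomes 66 of 183 (36.1%) did. The highest of the 29 levels outside pseudogene copies was in RPPH1 (ENSG00000259001), the RNA component of RNase P, at chr14:20811393 on the minus strand in its single exon. RPPH1 had 39.9% C among 7464 reads in the free library (Wilson 38.8 to 41.0), 39.2% of 699 with the small subunit (35.6 to 42.9) and 41.7% of 96 with the large subunit (32.3 to 51.7). The 3 Wilson intervals overlapped, while the reads were fewest with the large subunit. RPPH1 is a noncoding RNA that is not translated.

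The 12 members listed in all 4 lighter libraries held the ribosomal proteins RPS29 and RPS3, 6 further protein-coding genes, 3 processed pseudogenes and RPSAP58. RPS29 (ENSG00000213741, chr14:50052737, minus strand, coding exon 2), a protein of the small subunit, had the most reads of any member. Its level was 13.5% of 225979 reads in the free library, 13.5% of 62051 with the small subunit, 14.4% of 33027 with the large subunit and 16.1% of 26073 in monosomes. The monosome value stood above the other 3. RPS3 (ENSG00000149273, chr11:75115721, plus strand, coding exon 6), another small subunit protein, had 11.1% of 114888, 11.1% of 60382, 10.9% of 29370 and 11% of 45532 reads in the same order. Its levels spanned under 1 percentage point.

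Among the others, SERP1 (ENSG00000120742, chr3:150264033, minus strand, 5′ UTR in exon 1), which stabilises membrane proteins of the endoplasmic reticulum under stress, had 22.3% of 821 reads in the free library, 24.1% of 291 with the small subunit, 19.1% of 204 with the large subunit and 24.2% of 240 in monosomes. Its lowest Wilson bound in any library was 14.3%, well over the level limit. MDH2 (ENSG00000146701, chr7:75694133, plus strand, coding exon 8), the mitochondrial malate dehydrogenase, had 16% of 1227, 14.4% of 737, 15% of 301 and 14.4% of 543 reads. DHRS4 (ENSG00000157326, chr14:24423062, plus strand, coding exon 1), a short-chain dehydrogenase and reductase, had the highest pooled level of the 12 outside RPSAP58 (29.2%), with 32.1% of 56, 35.4% of 48, 29.8% of 47 and 22.1% of 68 reads. CDT1 (ENSG00000167513, chr16:88875580, plus strand, 3′ UTR in exon 10), which licenses replication origins, had 14.6% of 82, 16.5% of 85 and 21.3% of 127 reads in the first 3 libraries, and 14.9% with 15 C reads in monosomes. The Wilson intervals of DHRS4 and CDT1 overlapped in every library.

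SLC25A5 (ENSG00000005022, chrX:118603937, plus strand, coding exon 2), an ADP/ATP carrier of the mitochondrial inner membrane, had 12.4% of 8544, 11.4% of 7197, 11.7% of 2583 and 10.5% of 4435 reads. GID8 (ENSG00000101193, chr20:61576476, plus strand, 3′ UTR in exon 5), a subunit of the CTLH ubiquitin ligase, had 10.0% of 120, 21.5% of 172, 12.2% of 98 and 16.7% of 138 reads. RP11-69L16.5 (ENSG00000220472, chr6:7339258, minus strand), a processed pseudogene, kept between 11.6% and 12.3% over 403 to 1838 reads. Its window has an A in place of a G of the RPS3 window and is otherwise the same, and its level was near that of RPS3. Whether it holds reads of RPS3 was not tested. Of SLC25A5, GID8 and RP11-69L16.5, GID8 varied the most. Its Wilson intervals still overlapped between the free library (5.81 to 16.7) and the small subunit library (16 to 28.2).

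**Figure D4:**
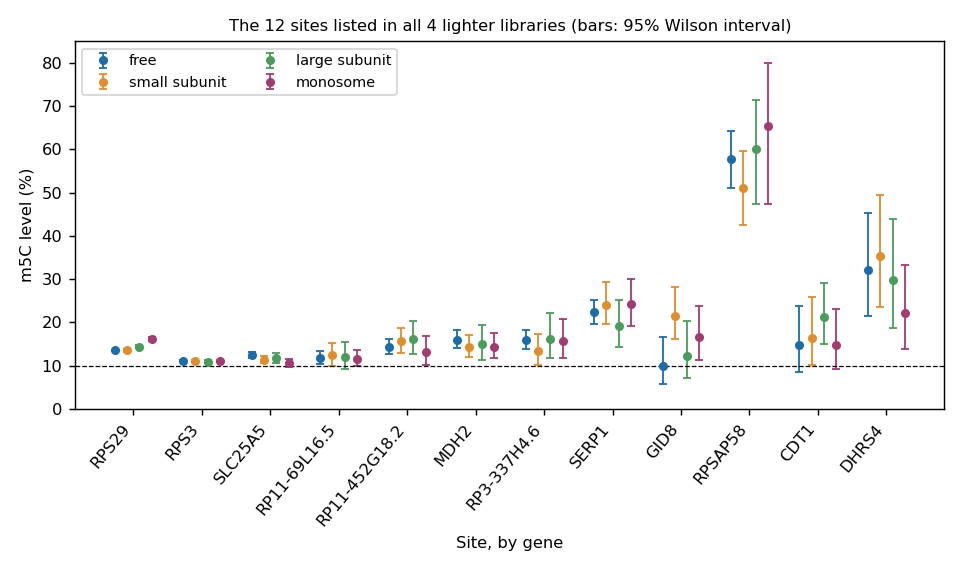
m5C level (y axis, percent) in each lighter library, with 95% Wilson intervals, of the 12 members listed in all 4 (x axis, by gene). The dashed line marks the level limit of 10%; RPS3 runs along it at 10.9 to 11.1% and RPSAP58 stands above the rest.

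The rule did not use differences among the lighter libraries, but a site enters such a comparison only where both levels are at least 10%, so falls below that limit are not seen. At each site listed in both libraries of a pair, the reads with C and with T were tested by Fisher's exact test (two-sided), and p was adjusted by Benjamini-Hochberg over all 584 comparisons of the 6 pairs. Such a test compares 2 libraries, not conditions. It counts each read as independent, although the reads had no molecular identifiers, so p at sites with many reads can be too small. Of the 584, 21 passed an adjusted p of 0.05, a background of 3.6%. Members gave 163 of the comparisons, of which 7 passed (4.29%) and 12 had an unadjusted p under 0.05. The 7 came from 3 sites. RPS29 gave 5 of them, among them the 13.5% of the free library against the 16.1% of the monosome library (Fisher's exact test, adjusted p = 6.03e-27). At RPS29 the free and small subunit libraries differed by 0.06 points (adjusted p = 1 by the exact test). MED4 (ENSG00000136146, chr13:48655783, minus strand, coding exon 5), a subunit of the Mediator complex, had 30.5% of 82 reads in the free library and 10.1% of 139 with the small subunit (exact test, adjusted p = 0.00701). SLC25A5 was 1.89 points higher in the free than in the monosome library (exact test, adjusted p = 0.0448).

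By pair of libraries, 1 of 36 members passed between free and small subunit (background 2.2%), 1 of 21 between free and large subunit (4.29%) and 2 of 22 between free and monosome (6.76%). It was 1 of 28 between small and large subunit (2.65%), 1 of 27 between small subunit and monosome (3.6%) and 1 of 29 between large subunit and monosome (3.2%). PACS2, a sorting protein, had 31.0% of 71 reads in the free and 14.2% of 141 in the small subunit library, which did not pass after adjustment (exact test, adjusted p = 0.105). The same held for GID8 between those libraries (adjusted p = 0.156 by the exact test).

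By kind of gene, 184 members (79.0%) were in protein-coding genes, against 295 of the 309 sites listed in polysomes (95.5%). Processed pseudogenes held 33 members (14.2%, exact 95% interval 9.95 to 19.3) and 3 polysome-listed sites (0.971%). Of the 33, 29 were listed in the free library and 17 of them there alone. Once C was read as T, the 21-nt window of 25 of the 33 also occurred in a transcript of another gene, as did that of 103 of all 233 members (44.2%) and of 99 of the 309 polysome-listed sites (32.0%). With 50 nt on either side of the site this held for 4 of the 33 (12.1%), 23 members (9.87%) and 23 polysome-listed sites (7.44%). Sites with such a copy are uncertain, and the part of exchanged reads in their levels was not tested. Of the 19 under 30%, 18 shared their window, while of the 14 at 30% or more 7 did, 13 were listed in the free library and the median was 40 reads. Among those 14, 12 were Type I sites without a G-rich sequence.

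The 16 members at 50% or more were 12 processed pseudogene sites, COMMD1, 2 sites in RPSAP58 and 1 in RNA28S5, and 9 were listed in the free library alone. RPS2P1 (ENSG00000225246, chr20:32710854, plus strand), a pseudogene of RPS2, had 70.4% of 54 reads in the free library (57.2 to 80.9). CTD-3035D6.1 (ENSG00000213315, chr14:91233131, plus strand) had 61.7% of 81 reads there and 50.0% of 30 with the small subunit. RPS15AP1 (ENSG00000214535, chr20:21147199, minus strand) had 57.7% of 52 reads in the free library. None of these 3 was followed by UCCA or by a G-rich sequence, as their windows show.
RPS2P1: ccaagaagctCCTCAtgatgg
CTD-3035D6.1: ttcttgaacaCACAGaaggat
RPS15AP1: gctctcaagaCCATCaacaat
RNA28S5, a copy of 28S ribosomal RNA on an unplaced contig, had the highest pooled level of all members. It was listed in the large subunit library alone, with 84.6% of 26 reads (66.5 to 93.9).

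In 8 groups, sites shared the 21-nt window once C was read as T, and these groups held 23 members. In 5 of the groups another site was listed in polysomes, so that there the same converted sequence was present in a polysome list under another gene's name. RPSA, a protein of the small subunit, had 62.9% of 78676 reads in the free library. Its levels were 63.2% of 50654 with the small and 66.1% of 23359 with the large subunit. RPSA was highest in monosomes at 74.3% of 15321, with 63.9% of 13059 in light and 55.2% of 5522 in heavy polysomes. The pseudogene RPSAP15 had 63.4% of 677 reads in the free library, 72.5% of 280 in monosomes and 45.5% of 77 in heavy polysomes. The 4 members of that window had between 45.0% and 91.7% over at most 213 reads. RPSAP58 (ENSG00000205246, chr19:24010197, plus strand, not placed in the annotation) had 57.7% of 213, 51.2% of 127, 60% of 60 and 65.5% of 29 reads from the free to the monosome library. COMMD1 (ENSG00000173163, chr2:62373745, plus strand, 3′ UTR in exon 2) had 63.6% of 55 and 69.0% of 29 in the free and small subunit libraries. RP11-506B6.3 (ENSG00000219773, chr6:112677695, minus strand) had 61.3% of 62 and 45.0% of 20. RP11-182B22.2 (ENSG00000226498, chr1:236983169, plus strand) had 59.2% of 76, 71.2% of 66 and, in monosomes, 91.7% of 24 reads, a rise from the free library that did not pass (exact test, adjusted p = 0.0655).

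The window of RPS2, a small subunit protein, was listed in polysomes at RPS2 itself and at the pseudogenes RPS2P5 and RPS2P55, with levels of 10.5% to 19.0% over all 6 libraries. Its 5 members had 13.2% to 24.7%. RP11-452G18.2 (ENSG00000197149, chr11:17249880, plus strand) had 14.2% of 1503, 15.6% of 617, 16.1% of 341 and 13.2% of 394 reads, and RP3-337H4.6 (ENSG00000219470, chr6:43507377, minus strand) 15.9% of 1089, 13.3% of 353, 16.2% of 191 and 15.7% of 248. Both stayed within the range of those 3 polysome-listed sites. EIF4B, a factor that helps unwind mRNA at initiation, was listed at 11.5% of 1361 reads in light polysomes, and its pseudogenes EIF4BP7, EIF4BP6 and EIF4BP3 were members with 10.1% to 23.5%. The RPS3 and RPS29 windows were listed in no polysome library under any name. RPS3P6 (ENSG00000213363, chr12:62415535, minus strand) had 10.5% of 5372, 10.1% of 2868 and 11.2% of 2556 reads in the free, small subunit and monosome libraries, and RP11-778D9.4 10.4% of 385 in the free library, both near RPS3. The copies of RPS29 in AC092933.3, CTA-276O3.4 and RP11-40C6.2 had 11.6% to 16.7%. BNIP3, a mitophagy receptor, and BNIP3P1 formed another such group, and CXorf40A shared its window with the polysome-listed CXorf40B.

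**Figure D5:**
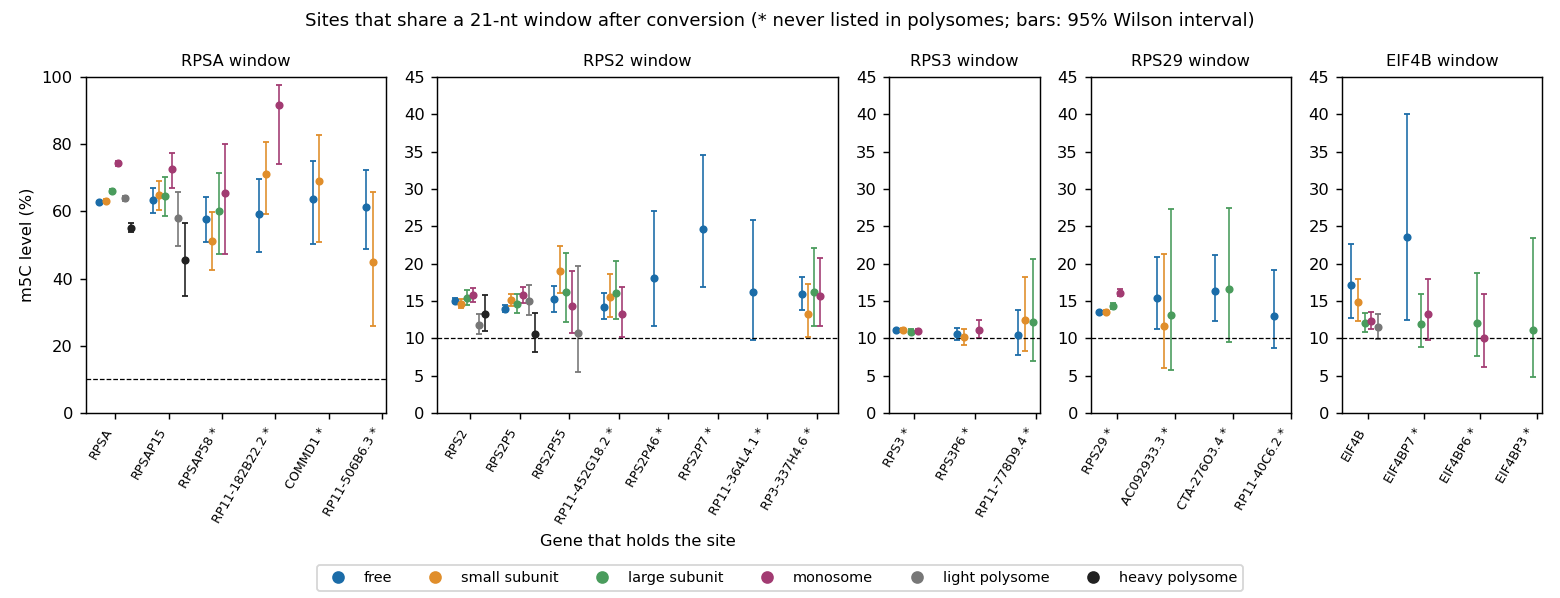
m5C level (y axis, percent; the RPSA panel runs to 100 and the others to 45) in each library that listed the site, with 95% Wilson intervals, for genes (x axis) that share a converted 21-nt window; stars mark members. Within the RPS2 window members lie at 13.2 to 24.7% beside 10.5 to 19.0% at the polysome-listed sites.

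Cytosolic ribosomal protein genes held 16 members (6.87%) in 13 genes, against 2 of the polysome-listed sites (0.647%), those in RPS2 and RPSA. Outside RPS29 and RPS3, RPS26 had 10.1% of 2762 reads in the large subunit library and RPL9 10.8% of 454 in the free library. Of the 16, 9 in 7 genes lay within 3 nt of an annotated transcript start of their gene. The mRNAs of ribosomal proteins begin with a C and a run of pyrimidines, the 5′ terminal oligopyrimidine tract, through which mTOR signalling controls their translation. Whether the 9 sites lie in such a tract, or whether it bears on their absence from the polysome lists, was not tested. The 9 included sites in RPL24, RPL32, RPLP2, RPS15A, RPS21 and RPS6, and had levels of 12.7% to 28.6%. Each was listed in 1 library, 5 of them in the free library, with 5 to 11 C among 26 to 67 reads. The interval went below 10% at 7 of the 9. Of the 9 bases centred on the site, 6 to 9 were pyrimidines where the window was whole, against a median of 5 over all members. The windows below run from those with most to those with fewest, at RPLP2 (chr11:809963) and RPS21.
RPL24: ccatgattctCTCTTtctttt
RPL32: accgtcccttCTCTCttcctc
RPS15A: cccctcccgtCCTCTttccgc
RPS6: cggaagttggCCCTCttttcc
RPLP2: tgcgtcggcgCCTTCcttttc
RPS21: cggtgactccCCAGGcgcagc
In RPL24 and RPL32 all 9 bases centred on the site were pyrimidines, as at 3 of the 231 members with a whole window (1.30%). This was so at 0 of the 309 polysome-listed sites, which allows a share of up to 0.971%. RPS6 (chr9:19380236, minus strand) was the highest with 28.6% of 28 reads. RPS15A had 23.1% of 26 reads at chr16:18801657 and 12.8% of 39 at chr16:18801661, and RPLP2 16.7% of 36 at chr11:809963 and 16.7% of 30 at chr11:809967. Over all protein-coding genes, 13 of 184 members (7.07%, exact interval 3.82 to 11.8) and 7 of 295 polysome-listed sites (2.37%, 0.959 to 4.83) lay within 10 nt of an annotated start. The 13 included the 9 ribosomal protein sites, and the rest were in ATP5I, PPP2R5C, SDF2L1 and WDR54. The higher share of members thus came mostly from ribosomal protein genes.

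Other gene groups were small. Genes of oxidative phosphorylation by symbol held 6 members and 3 polysome-listed sites, with NDUFS7, a core subunit of complex I, at 30.0% of 30 reads and NDUFV3 at 20.5% of 88. Translation factors and tRNA synthetases held 1 member, HARS, the histidyl-tRNA synthetase, with 13.7% of 146 reads, and 4 polysome-listed sites. Carrier and transmembrane genes held 6 members and 8 polysome-listed sites. RNA helicases held 3 members, DDX19A, DDX27 and DDX46, at 22 to 36 reads, and 1 polysome-listed site. Mitochondrial ribosome genes held 1 member, MRPL37, with 12% of 549 reads in the large subunit library, and 1 polysome-listed site. Antisense and clone-named transcripts, many of them pseudogenes, held 28 members and 6 polysome-listed sites.

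Type II sites made up 69 members (29.6%) and 121 of the polysome-listed sites (39.2%), G-rich Type I sites 92 (39.5%) and 131 (42.4%), and other Type I sites 72 (30.9%) and 57 (18.4%). Within protein-coding genes the Type II shares were 32.1% and 40.7% and those of other Type I sites 28.3% and 17.6%. The 3 types of members had close median levels in protein-coding genes, at 13.5% for Type II, 12.5% for G-rich and 13.2% for other sites. Coding sequence held 96 members (41.2%) and 163 polysome-listed sites (52.8%), the 3′ UTR 45 (19.3%) and 102 (33.0%), and the 5′ UTR 30 (12.9%) and 27 (8.74%). The listed C was predicted to be paired, from the folding energy of the site with 50 nt on either side, at 51.9% of members and 48.2% of polysome-listed sites. For Type II sites these shares were 27.5% and 28.1%. The median GC content of that window was 59.4% (56.4 to 61.4) in members and 61.4% (60.4 to 63.4) in the others.

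At 11 members (4.72%), the same gene had another site that was listed in polysomes, with 21 to 5036 reads there. ATP5SL, a gene for assembly of complex I, had the member at chr19:41938165 with 12% of 467 reads, while its Type II site 621 nt away in the transcript had 32.7% of 165 reads in light and 28.0% of 236 in heavy polysomes. WIZ, a zinc finger protein, had 14.6% of 396 reads at the member, and 30.9% of 139 in light and 12.3% of 235 in heavy polysomes at a site 1107 nt away. NDUFB7, a subunit of complex I, had 11.2% of 196 reads at the member, and 22.3% of 5036 and 20.4% of 2004 at a site 177 nt away. In ELAC2, the tRNA 3′ endonuclease, the member had 13.8% of 305 reads and the site 393 nt away 13.9% of 79 in light polysomes. UBL7 had 11.2% of 258 reads at its member and 12.6% of 269 in light polysomes 485 nt away, and MCFD2, a cargo receptor of the secretory pathway, 13.7% of 117 at its member and 21.7% of 69 in light polysomes. These 6 genes were chosen for a polysome-listed site, so reads at the read limit at another position follow from that choice. Such reads do not give the coverage of the member in polysomes, which was not tested.

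The members with most reads among those listed in the free library alone were RPL9, AIG1 with 13.3% of 195 reads, RP11-40C6.2 with 13.0% of 161, RNU2-17P, a copy of the U2 small nuclear RNA, with 11% of 145, and MCFD2. None of these 5 had a lower bound of 10% or more.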

How the data were processed

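Poly(A)-selected RNA of 6 gradient fractions, 1 library each, was profiled by RNA bisulfite sequencing. The authors trimmed reads with Cutadapt 1.13 and Trimmomatic 0.36 and mapped them to converted GRCh37 (Ensembl 75) with HISAT2 and Bowtie2 2.2.9, versions per the submitters' processing notes. The authors listed sites with 20 reads, a level of 0.1, 3 C reads, P under 0.001 and filters on unconverted reads. The fewest C reads of any listing were 5. The deposited coverage is a count of C or T reads, not scaled for depth. The deposited m5C level is the fraction with C. The P-value deposited by the authors was used only to describe the lists.

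C reads were level times coverage, whole at all 1222 listings. Members and lists were chosen with earlier results of these data known. Levels carry Wilson and shares exact binomial 95% intervals. Fisher's exact test, checked on simulated data, compared pairs of lighter libraries. Sites were placed in GENCODE 44 lifted to GRCh37 by gene identifier, for 534 of 542 sites. Type II is a C followed by UCCA, and G-rich a C with at least 2 G in the next 3 bases. Pairing was predicted with ViennaRNA 2.7.2 with 50 nt on either side. Named were, among members, those in all 4 lists, the highest in level with 50 reads, the highest in reads (also outside protein-coding genes and in the free list alone), those past the test, those with a polysome-listed site in the same gene, and those nearest the limits. Other named sites, and the distance to transcript starts, were chosen after their values were seen. Analyses used Python 3.11.15, numpy 2.4.6, pandas 2.3.3 and scipy 1.17.1.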

Additional observations from a re-analysis of the deposited data

How the results depend on the processing

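The number of members depended on the limits set on the lists. It was 147 with at least 50 reads in the lighter lists, 59 with a level of at least 20% there, 92 with that level in every list and 69 with at least 2 lighter libraries. With at least 20% in the lighter lists, the share in 1 library was 76.3%, in coding sequence 23.7% and outside protein-coding genes 44.1%. With at least 2 libraries, the median of summed reads was 227 and the share outside protein-coding genes 29.0%. The other 28 of 37 values moved by less than 1.5 times for a count or stayed within the interval of the main value. No paired analysis was possible because each fraction was 1 library. A site under 10% or 20 reads in a polysome library is not shown in its list, and no listing had under 5 C reads. Depth therefore limits every statement on absence.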
